A study of Mus musculus with 2 samples.

Results

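The internal regions of intracisternal A-particle (IAP) elements were followed in mouse embryonic stem (ES) cells after deletion of the histone chaperone Daxx. They were taken from a table of 634 transposable element families as every family whose name starts with IAP and ends in -int or _I, with no filter on level. This gave 6 families: IAPEz-int, IAPEy-int, IAP-d-int, IAPEY3-int, IAPLTR3-int and IAPLTR4_I. All 6 are annotated in the table as ERVK, the class II endogenous retroviruses (ERVs).

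IAPs are mouse ERVs that still transpose and cause mutations by inserting into genes. A complete copy has a long terminal repeat (LTR) at each end, which holds the promoter and the polyadenylation signal, and between them an internal region with the gag, pro and pol genes for the particle, its protease, and the reverse transcriptase and integrase. Recombination between the LTRs often removes the internal region and leaves a solo LTR, so RNA of the internal region comes only from copies that kept it. In ES cells IAPs are held silent by H3K9 trimethylation, which TRIM28 and SETDB1 bring about, and by DNA methylation. Daxx works with Atrx to place the histone variant H3.3, IAP chromatin included.

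The comparison asked whether ERVs are reactivated when Daxx is lost. The Daxx-deleted culture received 1 µM 4-hydroxytamoxifen (4-OHT) for 48 h and then recovered for 3 days. The control culture received the solvent DMSO; its title calls it wild type, but both cultures were Daxx fl/fl with the RosaCreERT allele, a Cre recombinase that tamoxifen switches on, on a B6/129 background. Since 4-OHT was given to the deleted culture only, loss of Daxx cannot be told apart from other effects of 4-OHT or of active Cre. Both cultures grew on inactivated feeder cells, and each was sequenced as 1 library from total RNA. There is therefore no replicate error, no test and no p-value for any value given here, and Daxx RNA was not analysed here.

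The table gives each family's level in RPKM, that is, reads divided by length and by the library's reads in exons of protein-coding genes. A family's value covers copies all over the genome and belongs to no single locus. In a bulk library, a few cells with much IAP RNA cannot be told apart from a small amount in every cell. Across all 634 families the median level was 0.0269 RPKM in the Daxx-deleted library and 0.0209 RPKM in the control, and the depth of the libraries is unknown. Log2 changes use a pseudocount of 0.001 RPKM, while ratios are quotients of the deposited values. Counts over all families use the 436 that have 100 or more annotated copies and average 0.01 RPKM or more over both libraries, called the floor below. These families were not centred on 0: their median log2 change was 0.18, with quartiles of 0.05 and 0.40.

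Every IAP internal family stood higher after Daxx deletion than in the control, as did 462 of all 634 families. At the floor this held for all 4 internal families and for 78.9% of all families (344 of 436). The 5 internal families with a control value above 0 had log2 changes from 0.27 to 1.78 relative to the median family. IAPEy-int had a ratio of 4.12 and IAPEz-int of 2.74, while IAP-d-int and IAPLTR3-int stayed under 2-fold and IAPEY3-int was at 1.38. Of the 4 internal families at the floor, 2 reached a 2-fold higher level, which 5.28% of all families at the floor did (23 of 436). Without the 4 themselves the share was 4.86% (21 of 432). All 4 also had a control level above 0.01 RPKM, so none passed the floor through the Daxx-deleted library alone. IAPLTR3-int and IAPLTR4_I lay below the floor.

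**Figure D1:**
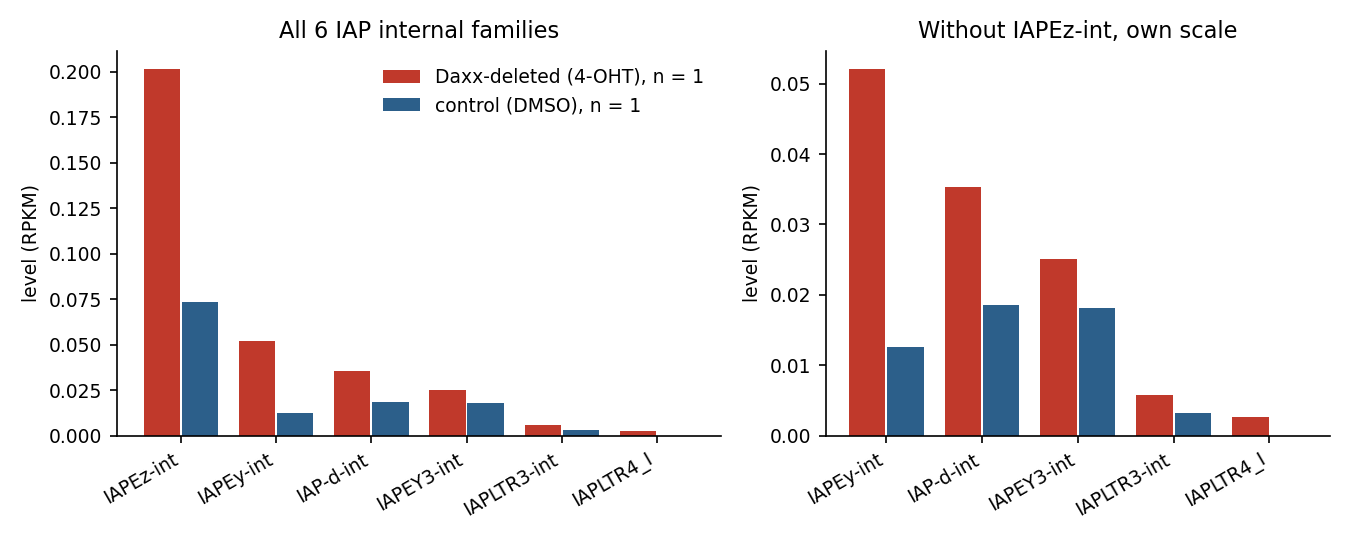
Level in RPKM of the 6 IAP internal families, with all 6 on the left and the 5 lower ones on their own scale on the right. Each bar is 1 library, so there are no error bars; the red Daxx-deleted bar is the taller one in each family, and IAPLTR4_I has no control bar because it is listed at 0.

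IAPEz-int is the coding region of the best-known IAPs, the group behind many recent insertions. It had 7666 annotated copies, more than any other LTR-class internal region in the table. Its level was 0.201 RPKM in the Daxx-deleted library and 0.0736 RPKM in the control. The ratio was 2.74 and the log2 change 1.44, or 1.26 relative to the median family. It had the highest level of the internal families in both libraries, 3.87 times the next one in the Daxx-deleted library and 3.95 times the next one in the control. Its difference of 0.128 RPKM was the 13th largest of the 634 families, and its log2 change the 8th highest of the 436 at the floor. Among the 634 families it ranked 50 by level in the Daxx-deleted library and 121 in the control.

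IAPEy-int had 536 annotated copies and the largest ratio of the internal families that have one. Its level was 0.0521 RPKM in the Daxx-deleted library and 0.0126 RPKM in the control, a ratio of 4.12. Its log2 change of 1.96, or 1.78 relative to the median family, was the 2nd highest at the floor, after that of MERVL-int. The family changed its place among the internal regions. It stood next after IAPEz-int in the Daxx-deleted library, but not in the control, where IAP-d-int and IAPEY3-int were above it. It ranked 175 of all 634 families by level in the Daxx-deleted library and 422 in the control.

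IAP-d-int and IAPEY3-int had nearly the same number of copies and nearly the same control level, but not the same difference. IAP-d-int, with 1567 copies, had 0.0353 RPKM in the Daxx-deleted library and 0.0186 RPKM in the control, a ratio of 1.89. IAPEY3-int, with 1622 copies, had 0.0251 RPKM in the Daxx-deleted library and 0.0181 RPKM in the control, a ratio of 1.38. Relative to the median family the log2 change was 0.71 for IAP-d-int and 0.27 for IAPEY3-int. Among the 436 families at the floor IAP-d-int ranked 28 and IAPEY3-int ranked 101. Whether a gap of this size exceeds the spread between cultures cannot be told from 1 library each.

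The remaining internal regions were close to the bottom of the table. IAPLTR3-int, with 533 copies, had 0.00576 RPKM in the Daxx-deleted library and 0.00317 RPKM in the control, a ratio of 1.82. IAPLTR4_I, with 231 copies, had 0.00264 RPKM in the Daxx-deleted library and was listed at 0 in the control. No ratio is given for IAPLTR4_I, and its log2 change of 1.86 comes from the pseudocount. It was not alone in this: 7 families were listed at 0 only in the Daxx-deleted library, and 22 only in the control. With these low families included, 3 of the 6 internal families were at least 2-fold higher on the pseudocount scale, or 2 of 5 without IAPLTR4_I. The share over all 634 families without a floor was 9.31% (59 families).

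At 1.5-fold without the floor, 5 of the 6 internal families were higher, and IAPEY3-int was the exception. The 5 included IAPLTR4_I, listed at 0 in the control, and 120 of all 634 families reached 1.5-fold. At the floor 3 of the 4 internal families reached 1.5-fold, as did 15.1% of all families (66 of 436). The median log2 change of the 6 families was 1.16, or 0.99 once the median family was subtracted. Without IAPLTR4_I it was 0.89. At least 2-fold lower values were found at the floor for 0 of the 4 internal families and for 0.459% of all families (2 of 436). Without the floor they were found for 0 of the 6 and for 2.05% of all families (13 of 634). After the median of all families was subtracted, IAPEy-int and IAPEz-int were still past 2-fold, 2 of the 4 at the floor, where the share of all families was 3.21% (14 of 436).

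Most of the IAP internal signal lay in IAPEz-int. Adding the RPKM of the 6 families, without regard to their lengths, gave 0.322 in the Daxx-deleted library and 0.126 in the control, a ratio of 2.55. IAPEz-int made up 62.5% of this sum in the Daxx-deleted library and 58.3% in the control. IAPEy-int made up 16.2% in the Daxx-deleted library and 10.01% in the control, while the share of IAPEY3-int was 7.78% in the Daxx-deleted library and 14.4% in the control. IAPEz-int carried 65.2% of the summed difference and IAPEy-int 20.1%. Without IAPEz-int the log2 ratio of the sum was 1.20, against 1.35 with it. Without both IAPEz-int and IAPEy-int it was 0.78.

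Most families of similar level had smaller differences. Of the families at the floor with a mean of 0.01 to 0.05 RPKM, 5.84% (17 of 291) reached 2-fold, and of those with at least 0.05 RPKM, 4.14% (6 of 145). The families outside IAP nearest to IAPEz-int in mean level were the SINEs B1F and MIRm. B1F had 0.142 RPKM in the Daxx-deleted library and 0.131 RPKM in the control, and MIRm had 0.146 RPKM in the Daxx-deleted library and 0.126 RPKM in the control. Nearest to IAPEy-int were MLT1J and MLT1D, old MaLR elements, with ratios of 1.15 and 1.34. Nearest to IAP-d-int were RLTR44A, with a ratio of 0.725, and RMER12B, with 1.09. Nearest to IAPEY3-int were RLTR11A2 and RMER20B, with ratios of 1.16 and 1.20. All 4 of these last families are ERVK. Each of the 8 neighbours had a lower ratio than the internal region it stood beside.

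**Figure D2:**
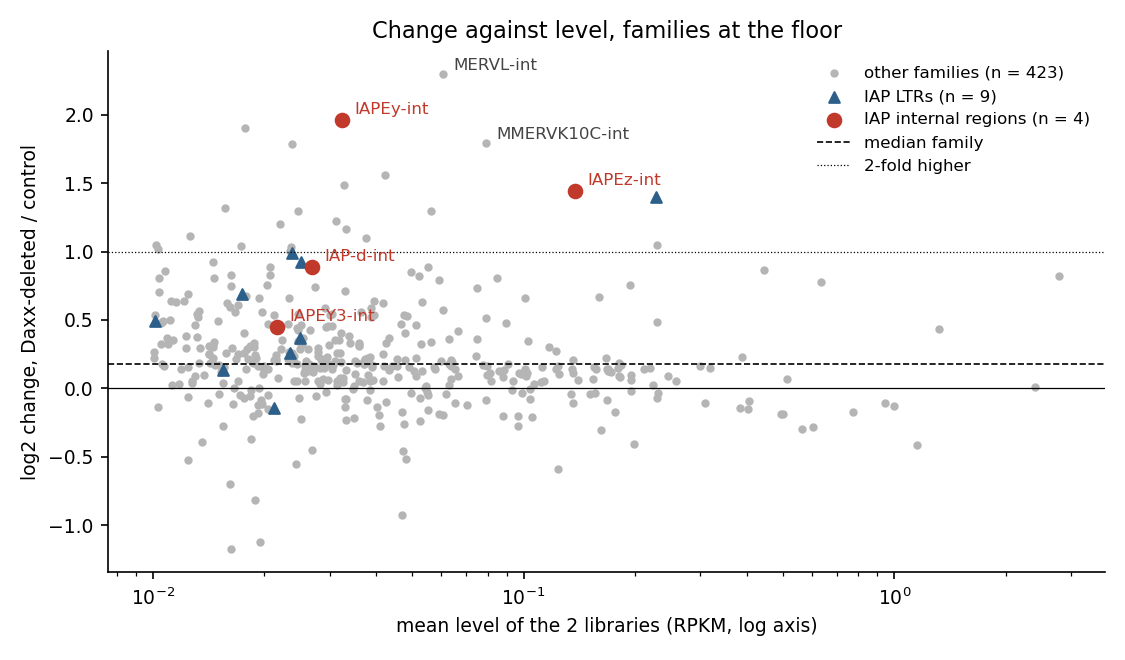
Log2 change between the libraries (pseudocount 0.001 RPKM) against the mean level on a log axis, 1 point per family at the floor. IAPEy-int and IAPEz-int lie above the dotted 2-fold line with 21 other families, and IAP-d-int and IAPEY3-int lie between that line and the dashed median family at 0.18.

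Internal regions and LTRs were then compared within IAP lineages, as far as the names pair them. Both are per-length levels, and since multi-mapped reads were kept, parts of the same element can hold the same reads. The gap was widest for IAPEy. Its LTR, IAPEY_LTR, had 0.0256 RPKM in the Daxx-deleted library and 0.0213 RPKM in the control, a ratio of 1.20 beside the 4.12 of IAPEy-int. The internal region thus stood at 2.03 times its LTR in the Daxx-deleted library and at 0.593 times its LTR in the control. No error can be put on this change of order.

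In IAPEY3 the internal region and the LTR had about the same ratio. IAPEY3_LTR had 0.0120 RPKM in the Daxx-deleted library and 0.00825 RPKM in the control, a ratio of 1.45 beside 1.38 for the internal region. In the IAPLTR3 lineage the internal region had the larger ratio, 1.82, beside 1.10 for the LTR, IAPLTR3. That LTR had 0.0162 RPKM in the Daxx-deleted library and 0.0147 RPKM in the control. The LTR IAPLTR4 had 0.0218 RPKM in the Daxx-deleted library and 0.0131 RPKM in the control, a ratio of 1.66, and its internal region IAPLTR4_I was at 0.121 of the LTR's level in the Daxx-deleted library.

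IAPEz-int shares no name with an LTR family, but its copies are usually flanked by LTRs of the IAPLTR1 and IAPLTR2 groups. IAPLTR1_Mm, the LTR family with the highest level among the IAPs, had 0.330 RPKM in the Daxx-deleted library and 0.125 RPKM in the control. Its ratio of 2.64 was close to the 2.74 of IAPEz-int, and IAPEz-int stood at 0.610 of its level in the Daxx-deleted library and at 0.589 in the control. IAPLTR1a_Mm and IAPLTR2_Mm had lower levels, with ratios of 2.05 and 1.95. Over the 9 IAP LTR families at the floor, 1 was at least 2-fold higher on the pseudocount scale, the log2 changes ran from -0.15 to 1.40, and the median was 0.49. The summed RPKM of the 10 IAP LTR families was 0.524 in the Daxx-deleted library and 0.264 in the control. The ratio was 1.99, beside the 2.55 of the internal regions. Of these LTR sums, IAPLTR1_Mm alone held 0.330 RPKM in the Daxx-deleted library and 0.125 RPKM in the control.

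**Figure D3:**
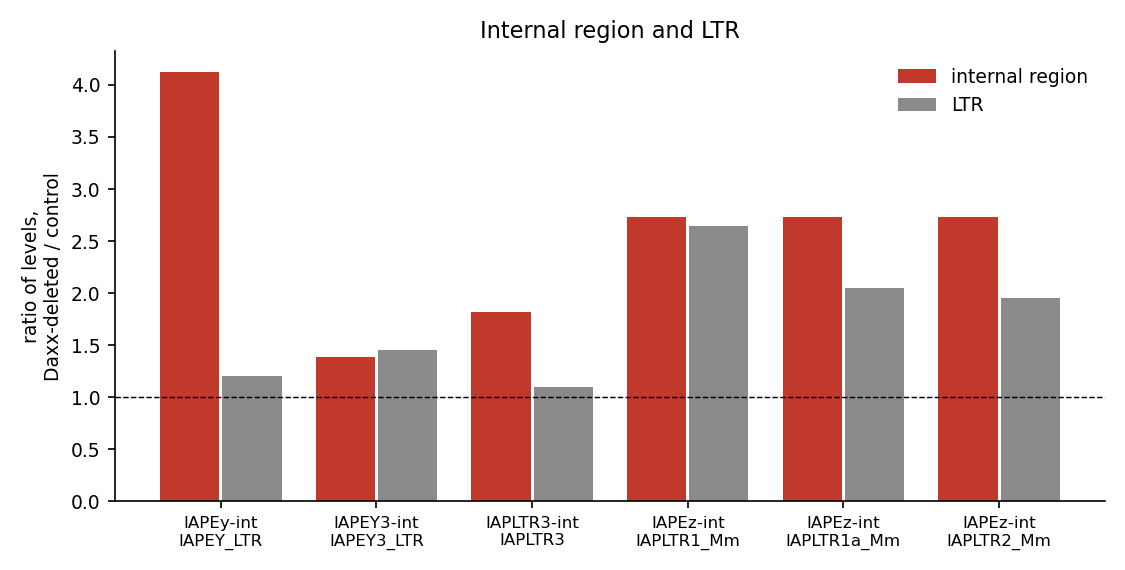
Ratio of the level in the Daxx-deleted library to that in the control for internal regions (red) and IAP LTRs (grey), with 1 pair per group of bars and the dashed line at equal levels. IAPEz-int is drawn beside each of 3 LTR families, IAPLTR4_I has no ratio and is left out, and the widest gap is that of IAPEy-int (4.12) over IAPEY_LTR (1.20).

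Internal regions of other ERVs give a nearer background than the whole table, because they too are the parts between LTRs. Of the 73 other LTR-class internal regions at the floor, 11.0% (8 families) were at least 2-fold higher and their median log2 change was 0.24. The 22 other ERVK internal regions had a median of 0.33, with 3 past 2-fold and log2 changes from -0.41 to 1.80. The 13 ERV1 internal regions, which include relatives of murine leukaemia virus, had a median of 0.78 with 3 past 2-fold. The 7 ERVL regions had a median of 0.14 with 1 past 2-fold, and the 31 MaLR regions had a median of 0.17 with 1 past 2-fold. The median of the 4 IAP internal regions at the floor was 1.16. These lists hold few families, whose values are not independent where they share reads, so the medians describe these libraries only.

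Beside the internal regions of the other ERVs with large ratios, IAPEy-int and IAPEz-int were neither first nor last. MERVL-int, which belongs to an ERV transcribed in the early embryo, had 0.101 RPKM in the Daxx-deleted library and 0.0198 RPKM in the control, a ratio of 5.11. MMERVK10C-int, another class II ERV, had 0.123 RPKM in the Daxx-deleted library and 0.0348 RPKM in the control, a ratio of 3.54. By log2 change among the LTR-class internal regions at the floor, MERVL-int ranked 1, IAPEy-int 2, MMERVK10C-int 3 and IAPEz-int 5. IAP-d-int ranked 11, just under 2-fold, and IAPEY3-int ranked 30. By difference in level IAPEz-int, with 0.128 RPKM, came before MMERVK10C-int, with 0.0886 RPKM, and MERVL-int, with 0.0814 RPKM. Among the internal regions past 2-fold at the floor, IAPEz-int came after RLTR4_MM-int, an ERV1 region named after its value was seen. RLTR4_MM-int had 0.309 RPKM in the Daxx-deleted library and 0.149 RPKM in the control, a difference of 0.160 RPKM and a ratio of 2.08. Regions short of 2-fold were not ranked here by difference. The 13 ERV1 internal regions at the floor had a summed difference of 2.05 RPKM. Of this, the ERV1 regions MuRRS-int and RodERV21-int held only 0.00780 and 0.00769 RPKM. Larger differences than that of RLTR4_MM-int therefore occurred among the rest.

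**Figure D4:**
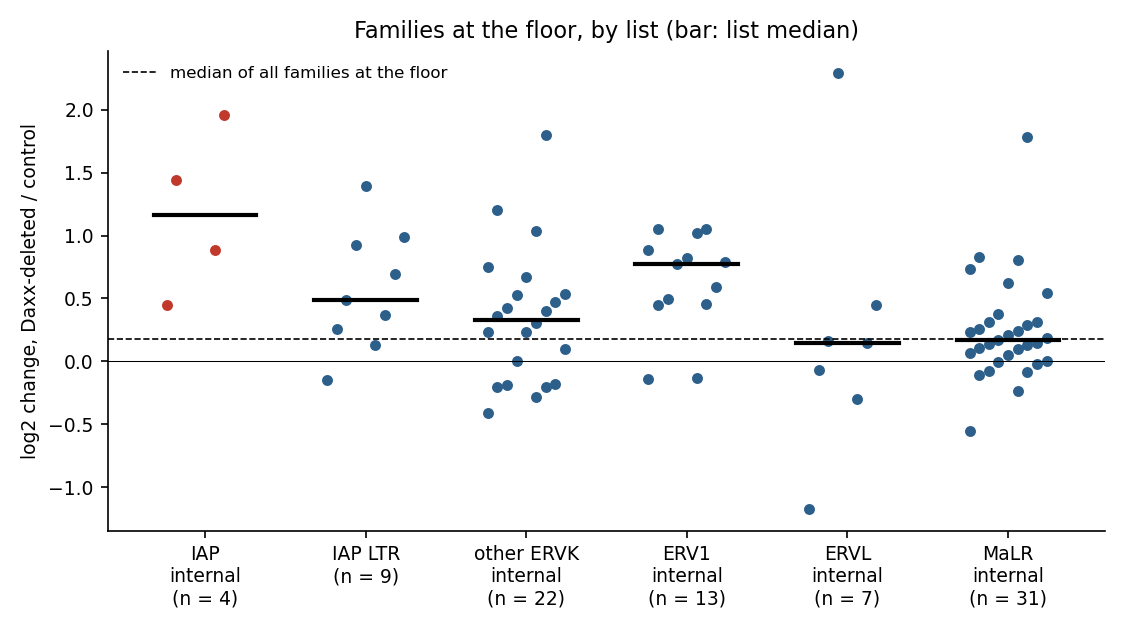
Log2 change between the libraries (pseudocount 0.001 RPKM) of the families at the floor, 1 point per family, grouped into IAP internal regions, IAP LTRs and the internal regions of other ERVs, with a bar at each list's median. The 4 IAP internal regions run from 0.45 to 1.96 and all lie above the dashed median family at 0.18, as do points of every other list.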

How the data were processed

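Levels of transposable element families were measured by RNA-seq in 1 Daxx-deleted and 1 control library of mouse ES cells (TruSeq kit, per the labels' protocols). Alignment was to mm9 with JAGuaR 2.1, built on BWA with Ensembl 67 exon junctions, per the file headers (info sheet). The submitters' processing notes name BWA 0.7.10. The deposited RPKM values were normalized by the authors to reads in protein-coding exons, from which mitochondrial genes, ribosomal protein genes and the 0.5% of exons with the highest expression were left out. Multi-mapped reads were kept. Not given in the sources used here are the repeat annotation, the sharing of multi-mapped reads and the use of strand, and reads may be counted in more than 1 related family.

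Columns were matched to samples by the treatment in their names. Whole reads were sought in 50 families above 0 in both libraries, those with the lowest product of copies and mean level. Element length was not used. After the best common scaling, 7 ratios lay within 0.4% of a ratio of whole numbers up to 6. The median over all scalings tried was 3 ratios. Depth was not recovered, so no interval or detection limit is given.

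Log2 changes are log2((Daxx-deleted + 0.001) / (control + 0.001)), which understates the change of low families. No model was fitted. The alternatives were other pseudocounts, floors, copy minimums and thresholds, and subtraction of the median. The members, the lists and the settings were chosen with earlier results of these data known. All members are named, with their 2 neighbours in level at the floor, the paired LTRs, MERVL-int and MMERVK10C-int. The MaLR list was spelled as in the table, and the list of all other LTR-class internal regions was added after the values were seen. Tables were handled with pandas 2.3.3 and numpy 2.4.6 in Python 3.11.15, and plots drawn with matplotlib 3.10.9.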

Additional observations from a re-analysis of the deposited data

How the results depend on the processing

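With 1 library per group, a shift beyond 1.5-fold is called a move, and a small median cannot move by shrinking toward 0. The count of 3 IAP internal families past 2-fold, IAPLTR4_I included, became 0 with a pseudocount of 0.1 RPKM and 5 at 1.5-fold. Of all families, 0 of the 436 at the floor were past 2-fold at that pseudocount. Without the floor, 120 of all 634 were past 1.5-fold. The internal count became 1 with a floor of 0.05 RPKM, where IAPEz-int alone remained and 4.14% of all families (6 of 145) were past 2-fold. It was also 1 with at least 1000 copies, where IAPEz-int, IAP-d-int and IAPEY3-int remained. There 10 of all families were past 2-fold, of a total not counted here. Both filters left out IAPEy-int and IAPLTR4_I without changing their values. The median log2 change of the IAP internal families, 1.16, became 0.50 at a pseudocount of 0.01 RPKM and 0.14 at 0.1 RPKM. A pseudocount above most control levels compresses every log2 change, and at 0.1 RPKM IAPEz-int had 0.80 and IAPEy-int 0.43. The log2 ratio of the summed RPKM, 1.35, did not move by that measure. It was 1.40 when weighted by copies and at most 1.45, with a floor of 0.05 RPKM. Its lowest value, 0.78 without IAPEz-int and IAPEy-int, was only just within 1.5-fold, so much of it rested on these families. The count of 23 families past 2-fold at the floor became 11 with a pseudocount of 0.01 RPKM, 0 with 0.1 RPKM, 14 after subtraction of the median, 59 with no floor, 6 with a floor of 0.05 RPKM, 10 with at least 1000 copies, 66 at 1.5-fold and 5 at 3-fold. The IAP LTR median of 0.43 over all 10 families became 1.40 with a floor of 0.05 RPKM, where IAPLTR1_Mm alone remained. Of the medians of the other 5 lists, all 35 alternative values stayed within 1.5-fold. Of the single internal families, 17 alternative values stayed within it and 7 moved, all with another pseudocount. Subtraction of the median, 0.18, was too small to move any of them by that measure. No sign changed among the internal families. Only subtraction of the median could have changed one, since a pseudocount keeps the sign. No paired analysis was possible because there was 1 culture per condition.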

Other observations

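The 8 LTR-class internal regions outside IAP that were at least 2-fold higher at the floor were spread over 4 ERV groups. Besides MERVL-int, MMERVK10C-int and RLTR4_MM-int they were RLTR10-int, MuRRS-int, RMER17A-int, RodERV21-int and MLT1B-int, named after their values were seen. RLTR10-int, a class II ERV with 2678 copies, had a ratio of 2.40. The list also held RMER17A-int, a class II ERV with 400 copies, at 0.0236 RPKM in the Daxx-deleted library and 0.0110 RPKM in the control, a ratio of 2.15. RodERV21-int, an ERV1 region with 1812 copies, had 0.0142 RPKM in the Daxx-deleted library and 0.00646 RPKM in the control, a ratio of 2.19. MuRRS-int, another ERV1 region, with 411 copies, had 0.0141 RPKM in the Daxx-deleted library and 0.00628 RPKM in the control, a ratio of 2.24. These 2 of the 8, with means of 0.0103 RPKM for RodERV21-int and 0.0102 RPKM for MuRRS-int, lie just above the floor and had control levels below 0.01 RPKM, unlike the 4 IAP internal regions at the floor. MLT1B-int, with 164 copies, was the MaLR region past 2-fold, at a ratio of 3.69.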
